A study of Mus musculus with 4 samples.

Results

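The activator protein 1 (AP-1) and immediate-early genes described here are 10 genes, namely Fos, Fosb, Jun, Junb, Jund, Batf, Egr1, Ier2, Zfp36 and Nr4a1. Each was found by name, as the probe set whose platform annotation gives that gene alone, with the highest mean taken where there were several. All 10 of 10 were found among 19938 named genes, and each had a single probe set. They were measured on 4 microarrays of one group, CCR6+ innate lymphoid cells (ILC3 in the sample names) sorted as CD127+ CD90.2+ CCR6+ ST2- cells from mesenteric lymph nodes of naïve C57BL/6 mice. The labels give no allele, treatment, age or number of animals, and do not say whether an array holds one mouse or a pool. No second group was analysed here, so the tests set each gene against background, and the spread between arrays may be partly technical.

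AP-1 is a family of transcription factors that bind DNA as pairs joined through a leucine zipper. Jun proteins pair with each other or with Fos proteins, whereas Fos proteins need a partner, and BATF pairs with Jun proteins and lacks a strong activation domain of its own. Immediate-early genes are transcribed within minutes of a stimulus from factors already present in the cell, and many of their mRNAs decay quickly. In lymphocytes they respond to antigen and cytokine receptors, and they also respond to tissue dissociation.

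The promoters of 6 members are shown. Of these, Fos, Fosb, Jun and Junb were highest on array 1, and Batf and Nr4a1 on array 2. The windows of Jund and Zfp36, which were also highest on array 1, were matched but are not shown. Whether promoter letters go with an array pattern was not tested. The sequences are the 250 bases before the RefSeq start of each gene, 5′ to 3′ on its own strand, in assembly GRCm38.p6. Fos lies at chr12:85473640-85473889 (plus strand), Fosb at chr7:19310046-19310295 (minus strand), Jun at chr4:95052223-95052472 (minus strand), Junb at chr8:84978749-84978998 (minus strand), Batf at chr12:85686470-85686719 (plus strand) and Nr4a1 at chr15:101266596-101266845 (plus strand). Capitals mark matches on either strand to 3 motifs: the half-site of the cyclic AMP response element (CRE), TGACG (reverse complement CGTCA); the AP-1-like site known from the Jun promoter, TGACATCA; and the TATA box, TATAAA.
Fos: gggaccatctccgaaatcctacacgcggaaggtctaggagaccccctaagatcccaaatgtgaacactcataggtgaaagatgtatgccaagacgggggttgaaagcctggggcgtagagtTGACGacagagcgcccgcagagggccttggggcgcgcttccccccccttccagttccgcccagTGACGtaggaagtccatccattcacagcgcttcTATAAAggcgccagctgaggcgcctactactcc
Fosb: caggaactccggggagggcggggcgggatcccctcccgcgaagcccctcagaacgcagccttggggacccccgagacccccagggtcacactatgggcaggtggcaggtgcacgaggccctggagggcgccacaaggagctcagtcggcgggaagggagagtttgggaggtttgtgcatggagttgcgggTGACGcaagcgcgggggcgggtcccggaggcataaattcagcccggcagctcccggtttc
Jun: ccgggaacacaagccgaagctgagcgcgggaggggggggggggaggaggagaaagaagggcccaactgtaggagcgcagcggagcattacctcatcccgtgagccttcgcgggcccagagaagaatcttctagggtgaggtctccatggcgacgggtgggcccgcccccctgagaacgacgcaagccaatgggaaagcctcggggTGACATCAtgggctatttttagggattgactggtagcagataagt
Junb: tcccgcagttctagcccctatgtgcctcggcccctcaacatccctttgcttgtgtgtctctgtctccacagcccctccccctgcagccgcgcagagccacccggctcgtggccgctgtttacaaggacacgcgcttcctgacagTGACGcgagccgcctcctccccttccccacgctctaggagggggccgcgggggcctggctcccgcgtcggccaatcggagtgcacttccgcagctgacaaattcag
Batf: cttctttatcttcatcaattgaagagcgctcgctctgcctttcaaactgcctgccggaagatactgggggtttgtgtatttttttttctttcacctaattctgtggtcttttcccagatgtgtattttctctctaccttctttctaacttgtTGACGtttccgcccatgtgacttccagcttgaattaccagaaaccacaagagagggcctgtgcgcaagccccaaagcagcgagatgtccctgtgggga
Nr4a1: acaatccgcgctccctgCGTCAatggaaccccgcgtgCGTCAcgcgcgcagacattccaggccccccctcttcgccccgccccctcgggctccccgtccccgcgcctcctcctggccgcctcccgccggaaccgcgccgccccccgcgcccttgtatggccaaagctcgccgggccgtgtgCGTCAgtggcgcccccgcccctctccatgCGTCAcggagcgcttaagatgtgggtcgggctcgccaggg

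RefSeq windows were searched for 8 members. The windows of Egr1 and Ier2 were not searched, so nothing is said here about their motifs. The CRE half-site was in 5 of the 8, Fos, Fosb, Junb, Batf and Nr4a1, and in 17.7% of 32817 promoter windows of the same length. Its match nearest the start began 66 bases upstream in Fos and 60 bases upstream in Fosb. Nr4a1 held 4 half-sites, the nearest beginning 40 bases upstream, and Junb and Batf 1 each, at 106 and 98 bases. The site TGACATCA was in Jun alone of the 8, beginning 45 bases upstream, and in 2.93% of all windows. TATAAA was in Fos, at 33 bases, and in 12.4% of all windows. The CArG box, the element bound by serum response factor, was in Zfp36 alone of the 8, at 58 bases, and in 1.47% of all windows. Sites more than 250 bases upstream were not searched. The full CRE TGACGTCA, which contains the half-site, and the AP-1 site TGANTCA had no match in these 8 windows and were in 1.55% and 6.75% of all. CCAAT was in Jun and Junb, and in 33.8% of all windows. The motifs were chosen after the promoters were seen, and TGACATCA is known from the Jun promoter itself. The shares are therefore descriptions and no enrichment was tested. A match describes the letters only, and binding was not measured.

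Each value is a log2 level of one probe set, as deposited. Background was set by 1237 chemosensory receptor genes (olfactory, vomeronasal, trace amine, bitter taste), taken as silent in lymphocytes, with a median level of 4.25. The detection p of a gene is close to the share of these genes that reach its mean. A gene was called above background at a detection p under 0.05 after adjustment over all named genes, and the lowest mean so called was 6.37. By this rule 46.2% of named genes were above background, and so were 10 of the 10 members. Of 15 genes of other organs measured as a control, 5 were called as well, and their highest value on any array was 7.42. A stricter reading therefore asks for a value above 7.42 on every array, which 24.1% of named genes and 7 members met. The median member level was 8.14, against 6.16 for all named genes. Probe sets differ in how they bind, so levels of different genes are not ranked as amounts of RNA.

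The gate and its neighbours were checked first. ILC3 markers were above background in 11 of 11 cases, with Il7r, which encodes CD127, at 12.56 ± 0.06 (SD, n = 4, as for all levels below), Id2 at 11.54 ± 0.12 and Il18r1 at 11.41 ± 0.11. B cell markers were called in 11 of 11 cases too, and the mean of the list was 8.90 on array 1, 7.95 on array 2, 9.08 on array 3 and 7.83 on array 4, with Cd79b at 9.84 ± 0.55, Pou2af1 at 9.19 ± 0.35 and Cd79a at 8.84 ± 0.78. T cell markers were called in 9 of 11 cases, with list means from 7.21 to 7.52, Cd3e at 8.91 ± 0.22, Cd3g at 8.77 ± 0.50 and Cd3d at 8.32 ± 0.44. NK cell and ILC1 markers were called in 7 of 12 cases, plasma cell markers in 4 of 7, dendritic cell markers in 4 of 10, monocyte and macrophage markers in 3 of 10, stroma and endothelium markers in 5 of 11 and neutrophil markers in 0 of 10. Among all named genes 46.2% were called, and these counts were not tested against that share. By the stricter limit of 7.42 on every array the counts were 11 for ILC3, 9 for B cells, 3 for T cells, 3 for NK cells and ILC1, and 1 each for plasma cells, monocytes and macrophages, and stroma and endothelium, with 0 for dendritic cells and neutrophils. This limit was met by 24.1% of all named genes. The leading genes were Ccl5 at 9.81 ± 0.83 for NK cells and ILC1, Fscn1 at 7.33 ± 0.71 for dendritic cells, Lyz2 at 8.22 ± 0.73 for monocytes and macrophages and Pecam1 at 8.44 ± 0.18 for stroma and endothelium. Some genes of these lists, chosen after their values were seen, were not called. They included Eomes at 4.80 for NK cells and ILC1 and Itgax at 4.83 for dendritic cells. Csf1r at 5.29 for monocytes and macrophages and Cdh5 at 5.04 for stroma and endothelium were not called either. Of the plasma cell genes, Xbp1 was at 8.48 ± 0.09, Jchain at 7.96, 8.14, 9.96 and 6.96 on arrays 1 to 4, and Igha, which encodes the constant region of IgA, at 7.27, 6.39, 10.66 and 6.33. Array 3 stood apart for Jchain and Igha but not for Xbp1. Sdc1 at 6.27, Prdm1 at 5.30 and Tnfrsf17 at 5.17, also chosen after their values were seen, were not called. B, T and myeloid cells also carry AP-1 genes. In sorted bulk RNA, more cells of a type and more RNA per cell cannot be told apart, and the part of other cells in the member levels was not tested.

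Jun genes were above background on every array. Jun, the founding member of the family, was at 9.77, 9.64, 9.58 and 9.63 on arrays 1 to 4, and 0 of the 1237 background genes reached its mean of 9.66 ± 0.08. Array 1 was the highest and the other 3 arrays lay within a narrow band. Junb, a Jun protein that is a weaker activator in many settings, was at 8.46, 8.31, 8.13 and 8.12, with a mean of 8.25 ± 0.16. Jund, often described as the steadily transcribed Jun gene, was at 8.24, 8.20, 8.09 and 8.10, with a mean of 8.16 ± 0.07. In Junb and Jund arrays 1 and 2 were both above arrays 3 and 4. The adjusted detection p was 0.0108 for Jun and 0.0143 for Junb and Jund, and each Jun gene was above the genes of other organs on every array.

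Fos genes lay near the limit of detection. Fos, the inducible partner of Jun proteins, was at 6.89, 6.42, 6.69 and 6.30 on arrays 1 to 4, a mean of 6.58 ± 0.27 that 21 background genes reached. Array 4 was below the call limit of 6.37 and array 1 was the highest. Fosb was at 7.36, 6.47, 6.34 and 6.53, a mean of 6.68 ± 0.47 that 16 background genes reached. Array 1 stood apart, and array 3 was below the call limit. The adjusted detection p was 0.0412 for Fos and 0.0333 for Fosb, and both genes stayed under the other-organ limit of 7.42 on all 4 arrays. Fos was not called on arrays 2 and 4 alone, at 6.36 with an adjusted p of 0.0517, whereas its adjusted detection p under the other settings ranged from 0.0333 to 0.0496. Their means lay 0.21 and 0.31 log2 units over the call limit, and the means of 3 genes of other organs, Ckm, Apoa1 and Tnnt3, lay above both.

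**Figure D1:**
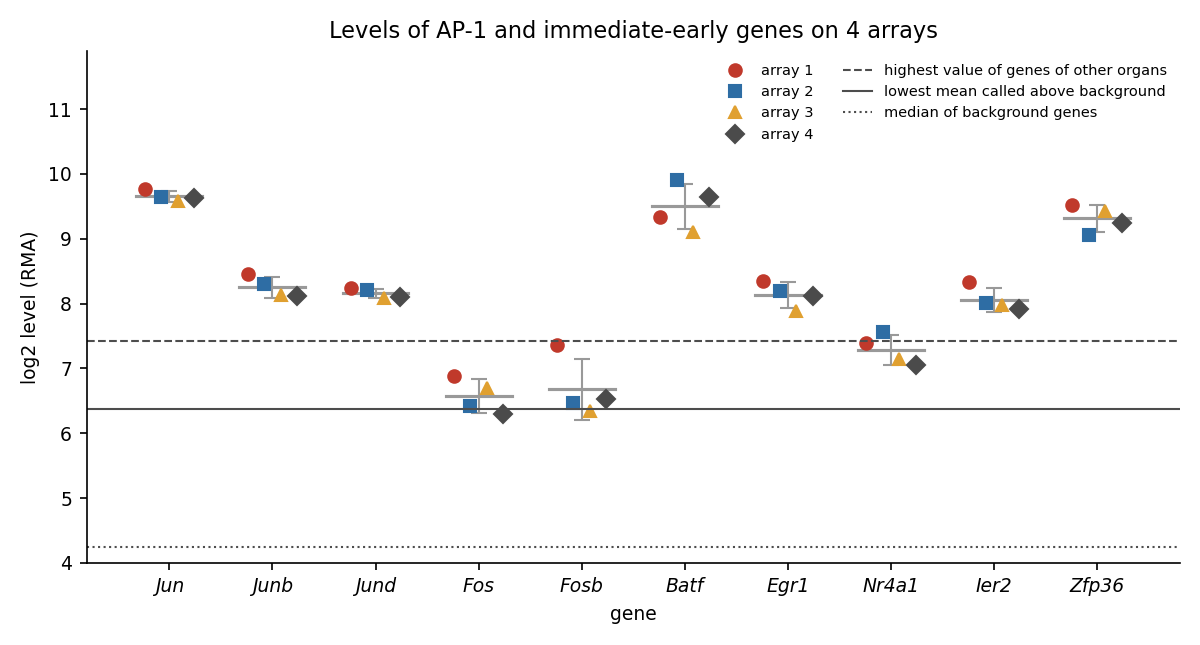
Log2 level of each of the 10 genes (y axis) on arrays 1 to 4 (symbols), with the mean (grey bar) and SD (error bar, n = 4). The solid line marks the lowest mean called above background (6.37), the dashed line the highest value of genes of other organs (7.42) and the dotted line the median of background genes (4.25); 7 genes lie above the dashed line on every array, and Fos and Fosb lie around the solid line.

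Batf, whose protein pairs with Jun proteins and is needed for interleukin 17 production by T helper cells, was at 9.34, 9.90, 9.11 and 9.65 on arrays 1 to 4. Its mean was 9.50 ± 0.35, which 0 background genes reached, with an adjusted detection p of 0.0108. Arrays 2 and 4 were both above arrays 1 and 3, and the highest and lowest arrays differed 1.73-fold. Among genes above background 15.5% had arrays 2 and 4 both above arrays 1 and 3, and 16.4% had the opposite order. B cell markers followed the opposite order in 9 of 11 cases, with array 1 and array 3 high. Among the members, Fos and Zfp36 had that order too. The part of B cells in these values was not tested.

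Of the early transcription factors outside the family, Egr1 and Nr4a1 were both called. Egr1, a zinc finger factor induced through serum response factor, was at 8.35, 8.19, 7.88 and 8.12, a mean of 8.13 ± 0.20 that 3 background genes reached. Array 1 was the highest and array 3 the lowest. Nr4a1, an orphan nuclear receptor used as a reporter of antigen receptor signalling, was at 7.39, 7.56, 7.14 and 7.05, a mean of 7.28 ± 0.24 that 8 background genes reached. Arrays 1 and 2 were both above arrays 3 and 4, and array 2 alone lay above the other-organ limit. The adjusted detection p was 0.0143 for Egr1 and 0.0221 for Nr4a1.

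The remaining members act outside AP-1 itself. Ier2, an immediate-early gene encoding a nuclear protein, was at 8.33, 8.01, 7.98 and 7.92, a mean of 8.06 ± 0.19 with an adjusted detection p of 0.0143. Array 1 was set off from the other 3 arrays by 0.32 log2 units. Zfp36 encodes tristetraprolin, which binds AU-rich mRNAs such as that of Tnf and promotes their decay. It was at 9.52, 9.06, 9.43 and 9.24, a mean of 9.31 ± 0.20 with an adjusted detection p of 0.0108. Arrays 1 and 3 were both above arrays 2 and 4, the order that B cell markers also had.

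Array 1 gave the highest value for 8 of the 10 members, namely Fos, Fosb, Jun, Junb, Jund, Egr1, Ier2 and Zfp36. The other 2, Batf and Nr4a1, were highest on array 2, and 0 members on array 3 or 4. Of all genes above background 26.4% were highest on array 1, 25.9% on array 2, 25.0% on array 3 and 22.6% on array 4. The median deviation of the members from their own means was 0.21, 0.016, -0.10 and -0.10 log2 units on arrays 1 to 4, while that of all genes above background was 0.0060, 0.0089, -0.0065 and -0.010. On array 1, 9 members were above their own mean, against 51.8% of genes above background. The exception was Batf. Centring each array on its median, an alternative added after the data were seen, left 8 members highest on array 1. No label separates array 1 from the others, so this difference was not tested.

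Heat shock genes encode chaperones that also respond to cell stress, and they showed a like order. Of the 9 above background 7 were highest on array 1 and 9 were above their own mean there. Their list means were 9.59, 9.35, 9.19 and 9.17 on arrays 1 to 4. Hspa8, a constitutive chaperone, was at 12.22, 12.16, 12.01 and 12.09, Dnaja1 at 11.53, 11.41, 11.16 and 11.17, and Hsp90aa1 at 11.30, 11.29, 11.08 and 10.96. Hspe1, a mitochondrial chaperonin gene, was highest on array 3 instead, at 11.55, 11.42, 11.60 and 11.29. Hspa1a, the inducible chaperone gene, was chosen after its values were seen and was at 7.66, 7.33, 6.32 and 6.95. In the other pathway lists 2 of 9 AP-1 family genes, 2 of 10 other early transcription factors, 7 of 21 other immediate-early genes, 2 of 16 upstream kinases and factors and 0 of 5 partners and targets above background were highest on array 1. In the same order, 5, 8, 11, 9 and 1 of these genes were above their own mean there. Of the control genes of other organs 3 of the 5 called were highest on array 1 and 4 were above their own mean there. Among the cell markers called, 4 of 7 NK cell and ILC1 genes, 2 of 11 B cell genes, 2 of 9 T cell genes and 2 of 11 ILC3 genes were highest on array 1. In the same order, 4, 10, 4 and 5 of these were above their own mean there. The B cell markers had a median deviation of 0.52 log2 units on array 1. Whether the members differ from these lists was not tested, nor was the part of heat shock or B cell signal in the member pattern.

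**Figure D2:**
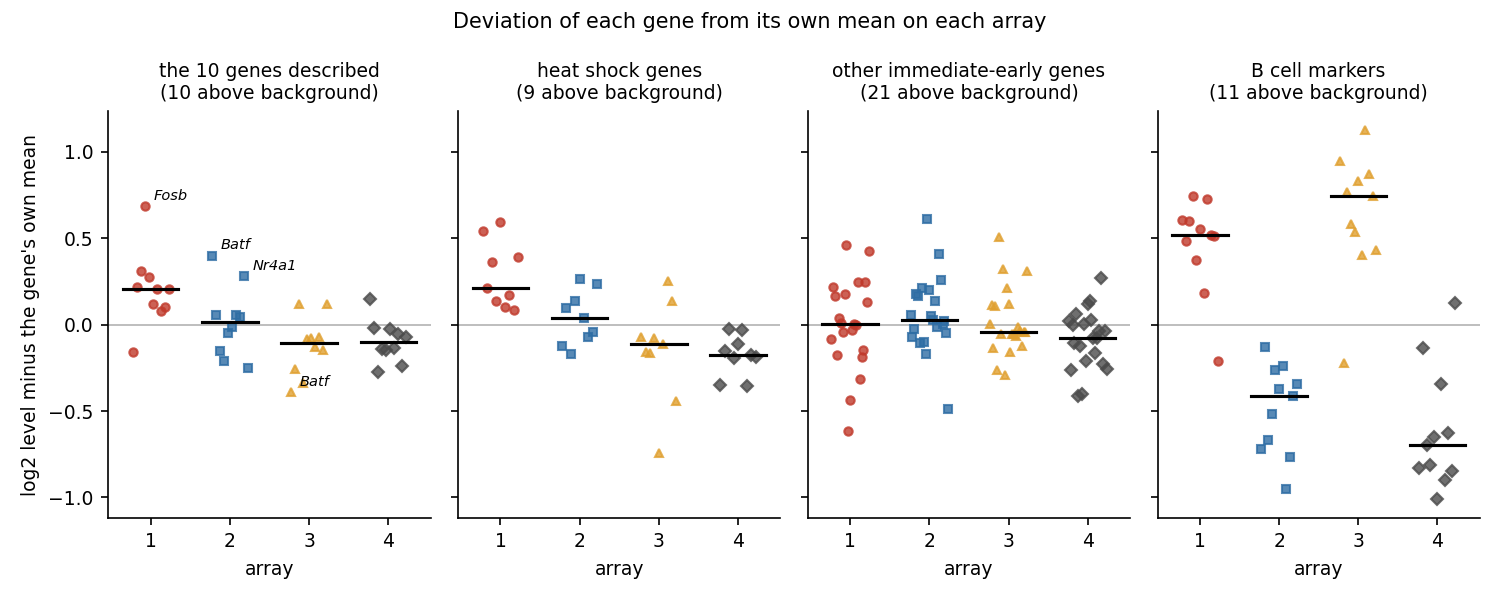
Deviation of each gene's log2 level from its own mean over 4 arrays (y axis) on each array (x axis), for genes above background in 4 lists; points are genes and black bars are medians. The members and the heat shock genes sit highest on array 1, with medians of 0.21 and 0.21, whereas other immediate-early genes have a median of 0.0051 there and B cell markers are high on arrays 1 and 3.

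The members differed in how far they varied between arrays. The median SD of the members was 0.200 log2 units, against 0.168 for all genes above background, and 7 of 10 were above that median. Jund and Jun varied least, at the 15.5 and 18.6 percentiles of the SD of genes above background, and Junb was at the 48.4 percentile. Batf and Fosb varied most, at the 87.4 and 94.7 percentiles. The highest and lowest arrays differed 2.03-fold for Fosb, and its SD was 0.466 with array 1 and 0.0987 without it. Without array 1 the SD of Jun went from 0.0844 to 0.0342, that of Junb from 0.163 to 0.106 and that of Ier2 from 0.187 to 0.0488. Without array 3 the SD of Egr1 went from 0.196 to 0.122.

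**Figure D3:**
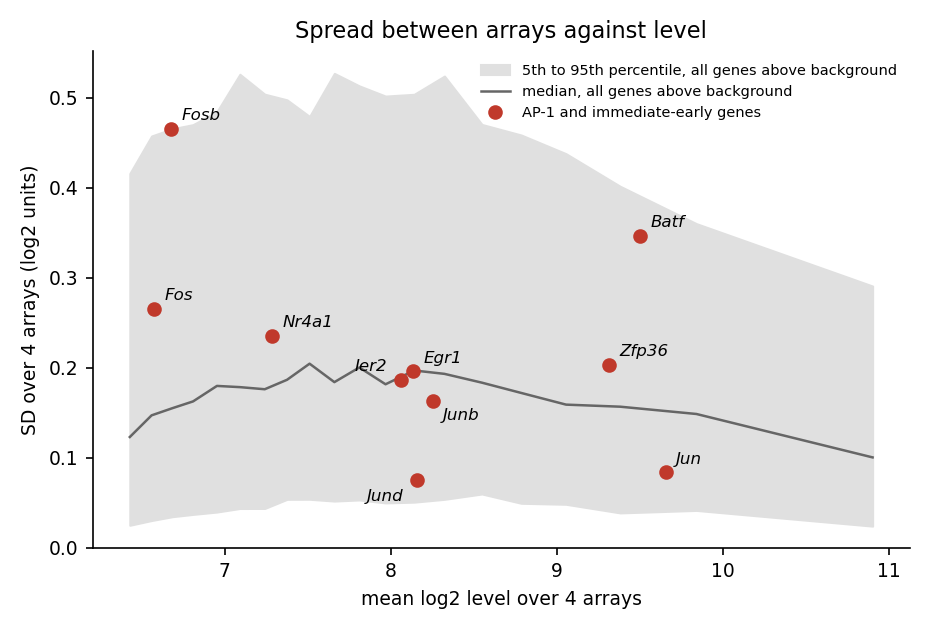
SD over 4 arrays (y axis, log2 units) against mean log2 level (x axis) for the 10 genes (red), with the 5th to 95th percentile band and the median line of all genes above background in 20 classes of level. Fosb and Batf lie near the upper edge of the band and Jund and Jun well below the median line.

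Genes with the most similar deviations were listed for Fosb and Batf, the 2 members with the largest SD. The measure was the root mean square difference of the deviations over 4 arrays, among 9202 other genes above background. For Fosb these were Snora31 at a difference of 0.0359 log2 units, Frrs1 at 0.0569 and Timp3 at 0.0580. For Batf they were Tmem179b at 0.0444, Tspan13 at 0.0487 and Colgalt2 at 0.0509. With 4 arrays and this many genes some close matches are found for any pattern.

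The wider AP-1 family was above background in 9 of 12 cases, against 46.2% of all named genes, with a median level of 7.42 over the list. Atf2, which pairs with Jun at CRE sites, was at 9.40 ± 0.25 and Atf7, its close relative, at 9.33 ± 0.36. Maff, a small Maf protein, was at 8.95 ± 0.07, and Batf3, a relative of Batf needed by some dendritic cells, at 8.94 ± 0.19. Maff had the same value of 8.92 on arrays 2, 3 and 4, which the probe summary of RMA can give, so its SD may be too small. Batf2 at 6.13 ± 0.18 and the stress-induced Atf3 at 5.66 ± 0.28 were not called, although limma's test called Batf2 at an adjusted p of 0.0133. That test has a lower limit, 5.82, the 95th percentile of background. It also called Ttr and Prm1, genes of other organs that the main test left uncalled, at adjusted p of 0.00336 and 0.0157. Of the Fos-like genes, chosen after their values were seen, Fosl2 was called at 6.65 ± 0.15 and Fosl1 was not, at 5.32 ± 0.09. Fos, Fosb and Fosl2 thus lay at most 0.31 log2 units above the call limit, and Fosl1 under it.

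Other early transcription factors were called in 10 of 13 cases, against 46.2% of all named genes, with a median level of 7.75. Bhlhe40, a repressor that also acts in the circadian clock, was at 9.34 ± 0.15, Klf6, a zinc finger factor, at 8.73 ± 0.12 and Csrnp1 at 8.05 ± 0.10. Myc, which drives growth, was at 9.28, 8.90, 9.79 and 8.04 on arrays 1 to 4 with an SD of 0.738, above the 0.466 of Fosb. Egr4 at 6.04 ± 0.12 and Nr4a2 at 5.61 ± 0.02, relatives of Egr1 and Nr4a1, were not called. With its lower limit limma's test called Egr4 at an adjusted p of 0.0138, as it did Ttr and Prm1 of other organs.

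Of 27 other immediate-early genes 21 were called, against 46.2% of all named genes, with a median level of 7.84. Btg1, an antiproliferative gene, was at 10.97 ± 0.21. Zfp36l1 and Zfp36l2, relatives of Zfp36, were at 10.56 ± 0.09 and 10.15 ± 0.44. Nfkbia, which encodes the NF-κB inhibitor IκBα, was at 10.41 ± 0.04. It had equal values on arrays 2 and 4, so its SD may be too small. Trib1 at 6.24 ± 0.35 and Sgk1 at 6.06 ± 0.06 were not called. Against its lower limit limma's test called both, at adjusted p of 0.0413 and 0.00177, as it did Ttr and Prm1 of other organs. Zfp36l2 was at 10.57, 9.66, 10.46 and 9.89, so like Zfp36 it was higher on arrays 1 and 3 than on both others.

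Upstream kinases and factors were called in 16 of 17 cases, against 46.2% of all named genes, with a median level of 8.13. A further 4 genes of that list are not analysed here. Elk3 and Elk4, partners of serum response factor, were at 10.22 ± 0.15 and 9.37 ± 0.14. Creb1, which binds the CRE, was at 9.55 ± 0.05 and the kinase gene Rps6ka3 at 9.46 ± 0.20. Creb1 had equal values on arrays 1 and 4, so its SD may be too small. Crem at 5.18 ± 0.25 was not called. Among partners and targets 5 of 10 were called, close to the 46.2% of all named genes. Their median level was 6.33, against 6.16 for all named genes. Tnf, whose mRNA tristetraprolin binds, was at 9.69 ± 0.26, and the EGR corepressors Nab1 and Nab2 at 8.43 ± 0.21 and 8.14 ± 0.14. Of the IRF proteins that bind DNA together with BATF, Irf8 was at 7.58, 7.54, 8.03 and 7.60 on arrays 1 to 4, a mean of 7.69 ± 0.23. Irf4 was not called, at 5.98, 5.55, 7.21 and 5.39 on arrays 1 to 4. In both genes array 3 was above the others. The list means of B cell, T cell, dendritic cell and plasma cell markers were also highest on array 3, at 9.08, 7.52, 6.01 and 7.52. The part of these cells in the Irf4 and Irf8 values was not tested. Il2, an AP-1 target in activated T cells, was not called at 5.43 ± 0.13. Heat shock genes were called in 9 of 10 cases, against 46.2% of all named genes. They were led by Hspa8 at 12.12 ± 0.09 and Hspe1 at 11.46 ± 0.14, with Hspb1 not called at 5.85 ± 0.08. A further 2 genes of the heat shock list are not analysed here.

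**Figure D4:**
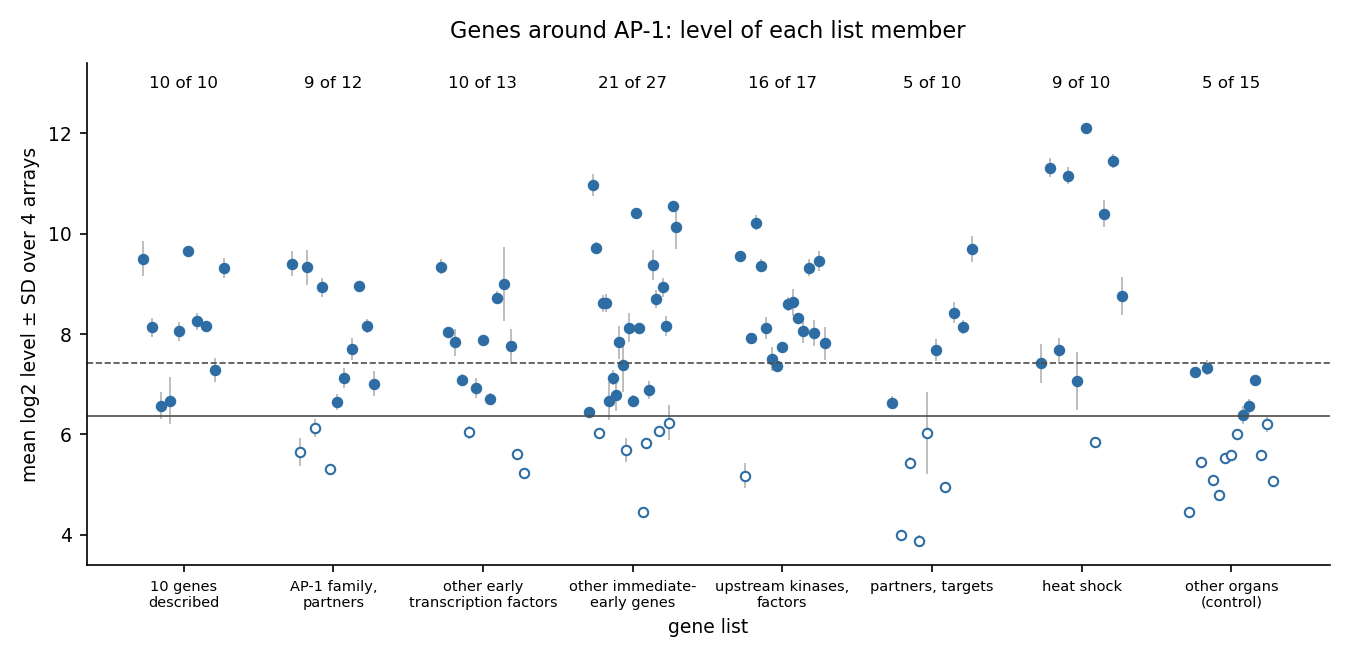
Mean log2 level with SD over 4 arrays (y axis) of each gene in the 8 lists (x axis); filled points were above background and open points were not, with counts above each list. The solid and dashed lines mark 6.37 and 7.42. Above background were 5 of 10 partners and targets and 21 of 27 other immediate-early genes, against 46.2% of all named genes.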

How the data were processed

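Total RNA of 4 samples of one group was hybridised to one array each. The authors deposited log2 levels, one per probe set, and used RMA per the submitters' processing notes; its version is not given in the sources used here. Because RMA already includes background correction, normalization and probe summary, scanner background could not be examined here, and the number of arrays limits precision. The table held 35556 probe sets, and 0 of its columns belonged to other samples. In GEO's platform annotation 21789 probe sets had 1 gene symbol and 1621 had several and were left unnamed. Of those with 1, 21698 had their gene in the RefSeq table (GRCm38.p6), which gave the current symbol. Of the 19938 genes, 999 had more than 1 probe set, and the one with the highest mean was used.

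For the detection p, the background genes whose mean reached the gene's own were counted, 1 was added, and the sum was divided by the number of background genes plus 1. It is one-sided, cannot fall below 0.000808 and was adjusted by the Benjamini-Hochberg method over all named genes. Of the background genes 27 were called. Of genes above background 10.9% had values equal to all deposited digits on at least 2 arrays, but 0 members did. The median absolute difference between 2 arrays over genes above background was 0.164 to 0.181 log2 units. Alternatives were olfactory receptors alone as background, limma (3.58.1, R 4.3.3) against the 95th percentile of background, a threshold of 0.01, adjustment over all singly named probe sets, other probe sets, median centring, arrays left out, and the genes of other organs as the limit. Calculations used Python 3.11.15, pandas 2.3.3 and numpy 2.4.6 and were tested on simulated data.

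The members, lists and tests were chosen with earlier results of these data known, and the motifs after the promoters were seen. Named genes are all members, up to 4 called and 2 not called per pathway list and up to 3 called per marker list, by highest mean, with other genes marked as chosen later. Sequences are RefSeq's.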

Additional observations from a re-analysis of the deposited data

Results flagged for a closer look

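For each named gene and list mean, 85 in all, the gap between the most extreme array and its nearest neighbour was set against the whole range of the 4 arrays by Dixon's ratio. Of the 85, 6 passed Dixon's critical value for 4 values. Chance marks about 1 in 20 groups of independent values without ties. Some groups here hold equal values and the list means contain named genes, so the 6 of 85 cannot be set against that rate. Of the 10 members 0 were among them. Array 1 was high for Maff, at 9.06, where the other 3 arrays held one equal value, and for Zfp36l1, at 10.69. Array 3 was high for Irf8, at 8.03, and for the T cell marker Cd3g, at 9.51. Array 3 was low for Pecam1, at 8.17, with equal values on the other 3 arrays. Array 2 was high for the list mean of the AP-1 family and partners, at 7.61, against 7.50 at the lowest.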

How the results depend on the processing

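At a threshold of 0.01 the rank-based detection test called 0 members, 0 named genes and 0 genes of each of the 6 pathway lists, because its smallest adjusted p was 0.0108. At an unadjusted p under 0.05 the rank-based test called 11395 genes. At an adjusted p under 0.05 limma's test called 10675 genes and 10 members. Under the other alternatives the member count stayed between 7 and 10, the lowest being the reading against genes of other organs, which Fos, Fosb and Nr4a1 did not meet. Leaving out each array in turn gave 10 members each time, and 8835 to 9570 named genes. With arrays 2 and 4 alone, the 2 with less B cell signal, 9 members and 8832 genes were called. Olfactory receptors alone as background called 8600 genes. Members have a single probe set each, so the choice of probe set changed no member value. No paired analysis was possible because there is one group. Low genes can be missed, and calls up to 7.42 carry little weight because genes of other organs reach that level.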
